A study of Mus musculus with 28 samples.

Results

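Regions of chromatin that were open in control growth plate skeletal progenitors and closed to peak calling in periosteal skeletal progenitors were collected from 12 ATAC-seq libraries. ATAC-seq marks accessible DNA by the insertion of a transposase, and the peak lists were those deposited for each library. Each list was first cut to its 59183 strongest peaks, the length of the shortest list, and overlapping peaks on chromosomes 1 to 19 and X were merged into 122248 regions. Regions were chosen by peak calls: a region was kept when all 3 control growth plate libraries had a peak in it and none of the 6 periosteal libraries did. This choice gave 12458 growth plate-only regions, 10.2% of all regions and 28.4% of the 43887 regions with a peak in all 3 control growth plate libraries. The peaks that chose the regions cannot also test them, so their openness in control libraries is given below as a description.

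The cells were gpSSPCs and pSSPCs (named gpSSCs and pSSCs in the labels) sorted from the long bones of mice aged 20 weeks. gpSSPCs were Prx1-lineage Ai9+ CD73+ cells from the growth plate and pSSPCs were Prx1-lineage Ai9+ Sca1+ cells from the periosteum, both after removal of CD45+, Ter119+ and CD31+ cells. The knockout (CKO) mice were Prx1Cre;Z24fl/fl, in which *Zmpste24*, the protease that matures lamin A, loses its floxed exon, and the controls that the study describes for other sorted cells were Prx1Cre mice with the Ai9 reporter, some with Z24fl/+ and some with no floxed allele named. The allele of the control mice of these libraries is uncertain: the genotype field of the labels gives the same PrxCre; Z24fl/fl entry for control and CKO bulk libraries, and the groups were taken from the sample titles. Prx1-Cre acts in the whole limb mesenchyme and not in progenitors alone, and pooling of animals was not stated. Each of the 4 groups (gpSSPCs control, gpSSPCs CKO, pSSPCs control and pSSPCs CKO) had 3 ATAC libraries of 3000 to 5000 cells, with 12250713 to 46756821 tags after filtering, and 3 bulk RNA libraries of 1000 cells, with 1333260 to 5315709 counts.

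The growth plate is the cartilage from which long bones lengthen. Its resting chondrocytes are specified by *Sox9* with its partners *Sox5* and *Sox6*, they secrete a matrix of type II, IX and XI collagen and aggrecan, and they enlarge into hypertrophic cells under *Runx2* and *Runx3*, when *Col10a1*, *Mmp13* and mineralisation genes come on. Open regions away from gene starts often contain enhancers, and in cartilage many enhancers of matrix genes are known to bind SOX factors. The periosteum is a fibrous sheath around the bone whose progenitors make fibroblast matrix such as decorin and type III collagen.

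A gene start itself lay in relatively few growth plate-only regions, and these are shown first because their sequences could be read. Of 32619 RefSeq promoter windows on the same build (GRCm38.p6, 250 bases before to 50 bases after a gene start), 415 were overlapped by a growth plate-only region by at least 150 bases. The RUNX letters TGTGGT, read on both strands, were in 27.2% of these 415 windows, in 16.6% of all windows, in 11.2% of 12345 windows under regions open in all 12 libraries and in 18.2% of 258 windows under the mirror set (regions with a peak in all 3 pSSPCs control libraries and in no gpSSPCs library). The AP-1 letters TGANTCA were in 13.0% of the growth plate-only windows, 7.8% of all windows, 4.6% of the windows under regions open in all 12 libraries and 18.2% of the mirror windows. The SOX letters ACAATG or ACAAAG were in 27.5% of the growth plate-only windows, 28.3% of all windows, 17.1% of the windows under regions open in all 12 libraries and 29.8% of the mirror windows. None of the matches printed below overlap each other. The growth plate-only windows had a median GC content of 54.3% and 6 CpG pairs, against 62.3% and 22 under regions open in all 12 libraries and 53.0% and 7 among all windows. A match is a description of letters and not a bound site, and in windows that a region covers in part it can lie outside the region.

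Among the genes of the 4 growth plate lists described below (cartilage matrix, chondrogenic regulators, growth plate signalling, hypertrophy and mineralisation), 14 had a promoter window of this kind. The 250 bases before the start are printed for the 7 of them that held SOX or RUNX letters there, chosen after the matches were seen, with SOX, RUNX and AP-1 letters in capitals. *Ucma* encodes a secreted protein of resting cartilage, *Ibsp* and *Spp1* encode bone sialoprotein and osteopontin, *Mmp13* encodes the collagenase of late hypertrophic cartilage, *Chadl* encodes a chondroadherin-like cartilage protein, *Sox6* encodes the SOX9 partner and *Bmpr1b* encodes a BMP receptor. In GRCm38 the printed stretches are chr2:4975872-4976121 (plus strand, *Ucma*), chr5:104299037-104299286 (plus, *Ibsp*), chr5:104434861-104435110 (plus, *Spp1*), chr9:7272264-7272513 (plus, *Mmp13*), chr15:81697288-81697537 (minus, *Chadl*), chr7:116031048-116031297 (minus, *Sox6*) and chr3:141982265-141982514 (minus, *Bmpr1b*).
Ucma: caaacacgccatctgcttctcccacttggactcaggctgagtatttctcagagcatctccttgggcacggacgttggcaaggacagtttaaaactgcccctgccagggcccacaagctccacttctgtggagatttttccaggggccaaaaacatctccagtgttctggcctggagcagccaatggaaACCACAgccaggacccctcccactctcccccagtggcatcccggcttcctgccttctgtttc
Ibsp: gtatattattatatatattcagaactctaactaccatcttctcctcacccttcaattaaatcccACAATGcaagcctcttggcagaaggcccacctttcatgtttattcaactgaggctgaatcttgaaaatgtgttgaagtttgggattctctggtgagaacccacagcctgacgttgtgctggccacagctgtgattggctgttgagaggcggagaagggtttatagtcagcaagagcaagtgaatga
Spp1: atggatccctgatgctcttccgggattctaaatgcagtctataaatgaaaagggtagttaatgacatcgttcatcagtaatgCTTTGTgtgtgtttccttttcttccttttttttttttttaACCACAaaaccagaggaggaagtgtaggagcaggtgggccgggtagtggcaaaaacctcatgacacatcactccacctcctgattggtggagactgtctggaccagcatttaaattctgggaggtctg
Mmp13: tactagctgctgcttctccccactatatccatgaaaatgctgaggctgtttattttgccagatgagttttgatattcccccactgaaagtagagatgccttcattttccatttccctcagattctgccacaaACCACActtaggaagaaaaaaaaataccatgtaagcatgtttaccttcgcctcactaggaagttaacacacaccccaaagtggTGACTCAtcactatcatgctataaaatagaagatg
Chadl: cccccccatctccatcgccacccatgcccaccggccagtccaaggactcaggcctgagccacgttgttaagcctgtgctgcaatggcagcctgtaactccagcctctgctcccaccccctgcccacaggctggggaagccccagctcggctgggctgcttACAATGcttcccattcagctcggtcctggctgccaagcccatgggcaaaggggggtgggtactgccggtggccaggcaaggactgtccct
Sox6: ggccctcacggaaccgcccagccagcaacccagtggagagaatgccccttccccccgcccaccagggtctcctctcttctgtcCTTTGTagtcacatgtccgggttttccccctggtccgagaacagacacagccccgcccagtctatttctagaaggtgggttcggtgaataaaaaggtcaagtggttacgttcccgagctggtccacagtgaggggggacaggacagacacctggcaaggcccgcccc
Bmpr1b: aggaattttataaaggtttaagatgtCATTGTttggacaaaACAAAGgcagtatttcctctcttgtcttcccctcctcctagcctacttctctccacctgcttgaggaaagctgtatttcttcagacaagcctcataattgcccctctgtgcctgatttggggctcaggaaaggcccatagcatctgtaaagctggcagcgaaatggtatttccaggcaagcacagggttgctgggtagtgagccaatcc
The RUNX letters began 62 bases before the start of *Ucma*, 128 before *Spp1* and 118 before *Mmp13*, and in all 3 they were read on the opposite strand as ACCACA. The *Mmp13* window also held the AP-1 letters 35 bases before the start. The SOX letters began 186 bases before *Ibsp*, 168 before *Spp1*, 90 before *Chadl* and 167 before *Sox6*, and the *Bmpr1b* window held them at 224 and 209 bases. Both *Bmpr1b* matches lie outside the open region, which ends at position 141982394 and covers the part of the window nearer the start, whereas the matches of the other 6 genes lie inside theirs. The RefSeq starts used for these windows are not always the GENCODE gene starts used for distances below: those of *Bmpr1b*, *Runx3* and *Sox6* lie 187.2, 31.9 and 7.7 kb past them, and the differences of the other 11 run from -299 to 181 bases. The other 7 windows (*Acan*, *Cnmd*, *Col9a1*, *Col9a2*, *Col11a2*, *Mia* and *Runx3*) held neither set of letters in these 250 bases.

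Most growth plate-only regions lay away from gene starts. By the GENCODE vM21 annotation, 54.5% were in introns, 33.6% were intergenic, 3.9% were in coding or noncoding exons, 2.4% were in untranslated exons and 5.6% (95% Wilson interval 5.2 to 6.0, counting error only) had their summit within 1000 bases of a gene start. The promoter share was 49.1% among the 21569 regions open in all 12 libraries and 4.4% among the 10622 mirror regions. The regions had a median width of 764 bases (quartiles 593 and 967, range 230 to 2694), against 1196 bases for regions open in all 12 libraries and 746 bases for mirror regions. The median distance to the nearest gene start of any type was 17.2 kb, against 1.2 kb and 20.8 kb in these comparison sets, and 694 regions (5.57%) were more than 100 kb away. On the autosomes 9.2% to 11.1% of all regions were growth plate-only, and on chromosome X 6.2% were.

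**Figure D1:**
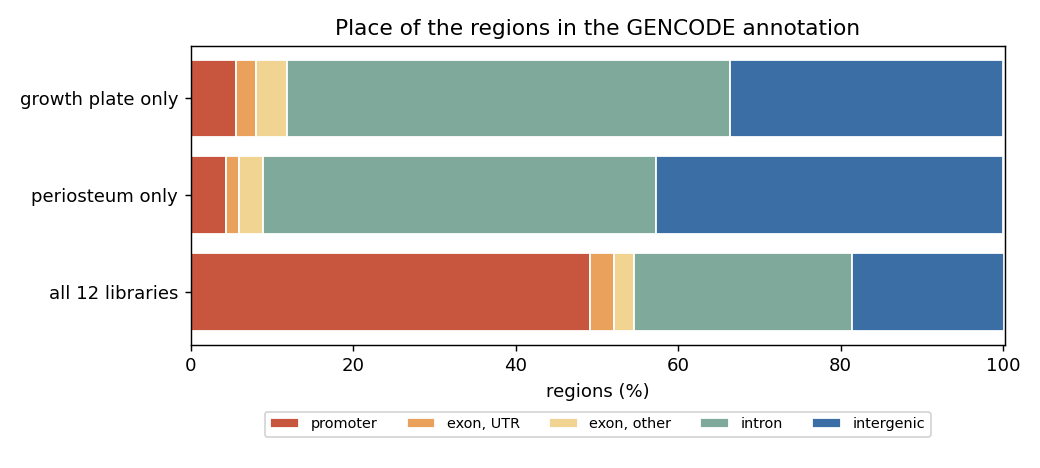
Share of regions (%) by place in the annotation for growth plate-only, periosteum-only (mirror) and all-library regions. Promoters take 5.6%, 4.4% and 49.1% of the bars, and introns and intergenic sequence take most of the growth plate-only bar.

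Some of the regions lay in runs along the chromosome. With a gap of up to 20 kb between neighbours, 5682 of the 12458 (45.6%) sat in runs of 2 or more, and 127 runs held at least 5 regions. The share was 39.9% of the mirror regions (60 runs of at least 5), 54.3% of the 21569 regions open in all 12 libraries (456 runs) and 91.8% of all 122248 regions, sets that differ in number and so in spacing, and no test of the differences was run. The longest run had 13 regions over 129.0 kb at *Runx3*, and all 13 had a peak in all 3 CKO libraries. The next runs held 12 regions over 58.4 kb at *Col2a1* and its neighbour *Pfkm*, 11 over 95.1 kb at *Chst11*, a chondroitin sulfotransferase, and 10 each near *Sox9* and *Sstr2*, a somatostatin receptor gene that neighbours *Sox9*.

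The signal that chose the regions differed between libraries. The median MACS2 fold enrichment (pileup over local background) at the growth plate-only regions was 8.76, 8.49 and 6.15 in control replicates 1, 2 and 3 and 8.82, 7.78 and 4.95 in CKO replicates 1, 2 and 3. Replicate 3 was the lowest of each group although it had the most tags (40668538 and 39801835 after filtering, against 12941435 to 19271923 in the other 4 gpSSPCs libraries). At the regions open in all 12 libraries the medians were 9.72, 9.60 and 7.90 in controls and 9.74, 9.44 and 6.68 in CKO, so replicate 3 was lowest there as well. The third library therefore stood apart on both sets, and no fold was averaged between genotypes. Its deeper sequencing and lower fold move together and their part was not tested.

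**Figure D2:**
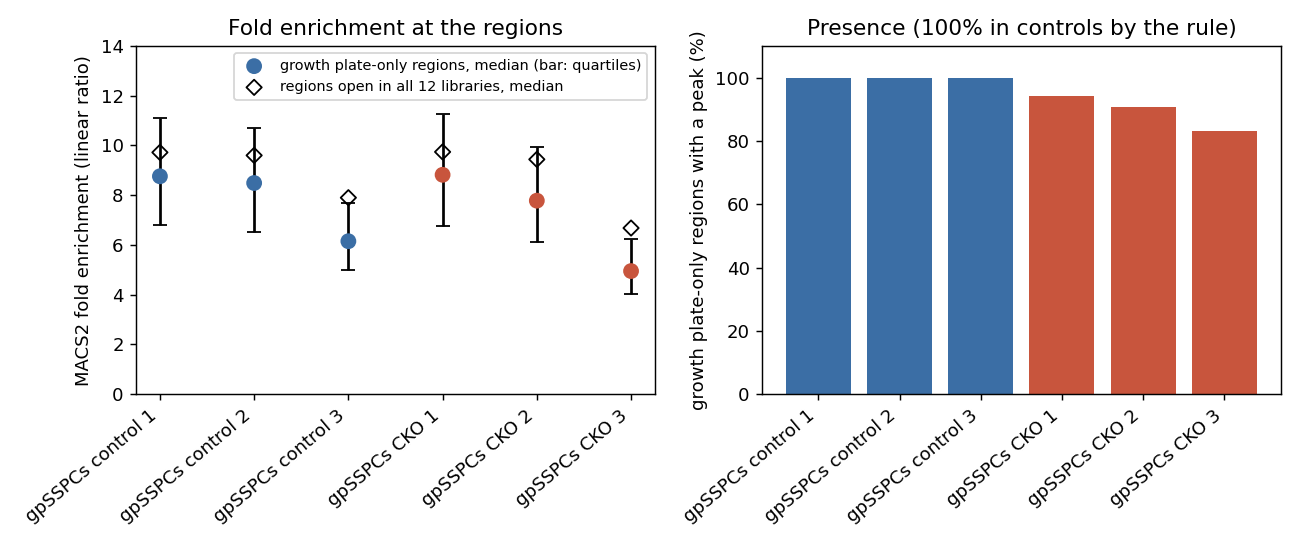
Left, median fold enrichment (linear ratio, bars are quartiles) at growth plate-only regions, with diamonds for the median at regions open in all 12 libraries, in each gpSSPCs library. Right, percent of the 12458 regions with a peak; controls are at 100% by the rule and CKO libraries are at 94.3%, 90.7% and 83.0%.

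The region with the highest mean control fold lay in an intron of *Mylk*, myosin light chain kinase (chr16:34784453-34785177, 39.7 kb from the gene start). Its fold was 22.54, 21.09 and 15.12 in controls and 19.33, 17.16 and 8.18 in CKO, where replicate 3 was below every control. The other 7 of the top 8 had mean control folds of 17.07 to 18.46, and all 8 had a peak in all 3 CKO libraries. They lay nearest to *1700015F17Rik*, *Gm12458*, *Gm11445*, *T* (brachyury, the notochord transcription factor), *Zpld1*, *BC055402* and *Cyp2j6*. Of these 8 nearest genes, *Mylk* and *Cyp2j6* had enough RNA counts to be tested, with log2 fold changes between control gpSSPCs and pSSPCs of 1.03 ± 0.96 (SE) and -0.51 ± 0.67, neither past the threshold. At the other end, a region near *Gm48191* was just inside the rank limit at rank 59182 of control replicate 2 (fold 5.16, −log10 q 9.36), and a region at the *Trim2* promoter was just outside at rank 59184 (fold 4.58, −log10 q 9.36). A further 5758 regions had a peak in 2 of the 3 controls and none in pSSPCs, and for 4529 of them the full list of the third library held a weaker peak.

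Absence from pSSPCs depended in part on the limit to 59183 peaks. In the full deposited lists 9665 regions (77.6%) had no peak in any of the 6 pSSPCs libraries, 1630 had a weaker peak in 1 library and none had one in all 6. The longest list, pSSPCs CKO replicate 3, held a weaker peak at 18.7% of the regions, and the shortest, pSSPCs control replicate 2, at 0% since it was not shortened.

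Before the genes near the regions are described, the sorted cells were checked by their RNA. CPM (counts scaled to a common library total) of *Nt5e*, which encodes CD73, was 248, 196 and 201 in control gpSSPCs and 55.3, 55.4 and 53.6 in control pSSPCs, and the groups did not overlap. *Ly6a*, which encodes Sca1, was 304, 862 and 821 in control gpSSPCs and 1240, 2720 and 2820 in control pSSPCs. *Zmpste24* was 4.70, 15 and 16.3 in control gpSSPCs and 1.16, 8.32 and 7.59 in CKO gpSSPCs, lower in each replicate, although whole-gene counts include exons outside the deleted one. The summed CPM of 19 cartilage matrix genes was 76700, 62500 and 62000 in control gpSSPCs and 17600, 13200 and 11700 in control pSSPCs, led by *Col2a1*. The 20 periosteal fibroblast genes summed to 27200, 29600 and 28300 in control gpSSPCs and 79800, 65300 and 66800 in control pSSPCs, led by *Gsn*, so each sort carried the markers of its label and also RNA of the other list. Since these are bulk libraries, fewer cells of a type and less RNA per cell cannot be told apart.

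Red cell RNA was also higher in control gpSSPCs than in control pSSPCs in replicates 2 and 3, and near equal in replicate 1. The 4 erythroid genes, led by *Hbb-bs*, summed to 13.1, 4670 and 4720 CPM in control gpSSPCs and 13.5, 1400 and 1320 in control pSSPCs, although the sort removed Ter119+ cells, and their part in the comparisons below was not tested. None of the 4 was the nearest gene of a growth plate-only region. Endothelial genes, led by *Pecam1*, summed to 18.8 to 21.4 CPM in control gpSSPCs and 31.5 to 55.6 in control pSSPCs. Lymphoid genes summed to 0 to 2.82 against 0 to 0.604 CPM, with *Cd3e* and *Ms4a1* at 0 in all 12 libraries. Myeloid genes, led by *Cd68*, summed to 4.65 to 20.0 against 6.75 to 23.7 CPM, and muscle genes, led by *Acta1*, to 1.27 to 21.6 against 1.5 to 32.8 CPM. Schwann cell genes, led by *Sox10*, summed to 18.6, 2.82 and 3.38 CPM in control gpSSPCs and 0.75, 0 and 0 in control pSSPCs, and pericyte genes, led by *Cspg4*, to 136, 299 and 299 against 113, 200 and 218 CPM, so the pericyte sums overlapped between the groups. The muscle gene *Des* and the pericyte genes *Myh11* and *Cspg4* were each the nearest gene of 1 growth plate-only region, and the part of these cell types in the comparisons was not tested. No gene of these lists was called between control gpSSPCs and pSSPCs, with or without the replicate block described below.

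All 19 genes of the cartilage matrix list had at least 1 growth plate-only region nearest to them, 61 regions in all, of which 51 had a peak in all 3 CKO libraries. By comparison 19.2% of the 13173 genes tested for RNA were the nearest gene of such a region. *Col2a1*, the chain of type II collagen, had 9 regions, from 6.8 kb inside the gene to 28.9 kb upstream. Its promoter region (chr15:98004241-98005885) had folds of 4.18, 4.85 and 4.93 in controls and 5.68, 6.01 and 5.33 in CKO, every CKO library above every control. The strongest *Col2a1* region, 9.8 kb upstream (chr15:98014158-98015365), had folds of 7.56, 8.26 and 4.84 in controls and 8.91, 8.43 and 5.88 in CKO, with overlap between the genotypes. *Col9a1*, a chain of type IX collagen, also had 9 regions, with mean control folds of 4.13 to 8.39. *Hapln1*, the link protein that holds aggrecan on hyaluronan, had 6, reaching 292.4 kb upstream, and *Col11a1* had 4, the strongest at a mean of 14.76. By nearest gene of any type the mirror set had 2 regions at this list, both at *Epyc*, which encodes epiphycan. By nearest protein-coding gene *Col9a1*, *Matn1*, *Cnmd* and *Fmod* also had 1 mirror region each.

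*Acan*, the aggrecan core protein, had 1 region by nearest gene of any type and 7 by nearest protein-coding gene, all 7 with a peak in all 3 CKO libraries. The strongest lay 31.8 kb upstream (chr7:79021029-79022237) with folds of 15.61, 17.31 and 12.39 in controls and 16.08, 13.78 and 9.02 in CKO. The region at the *Acan* start (chr7:79052579-79053571) was weaker, at 3.49, 3.69 and 3.96 in controls and 3.42, 5.33 and 4.12 in CKO. The distant region thus had the higher fold in each of the 6 libraries.

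Several chondrogenic transcription factors had regions far from their starts. When noncoding genes were left out, *Sox9* was the nearest gene of 30 growth plate-only regions, the most of any protein-coding gene. Of these, 14 lay upstream, as far as 794.3 kb, and 16 downstream, as far as 412.5 kb, and 29 had a peak in all 3 CKO libraries. The strongest (chr11:112002923-112003810, at -778.9 kb from the start) had folds of 17.31, 14.97 and 10.28 in controls and 17.42, 12.08 and 6.09 in CKO. The region closest to *Sox9* (chr11:112787733-112788760, 5.9 kb downstream of the start) had 3.71, 4.56 and 4.09 in controls and 4.63, 4.38 and 4.15 in CKO. Of the growth plate-only regions at this locus, the closest therefore had a lower mean control fold than several far ones. The next closest, 14.9 kb upstream, had a mean of 11.18. Regions with a pSSPCs peak were left out by the rule, so openness beside the gene is not described in full.

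*Runx3* was the nearest protein-coding gene of 15 regions and *Sox6* of 13, and all 28 of them had a peak in all 3 CKO libraries. *Foxa2*, a forkhead factor of hypertrophic chondrocytes, had 17 regions, *Sox5* had 11 and *Runx2* had 5. The strongest *Sox6* region lay within an exon annotation 194.2 kb past the start (chr7:115844220-115845170), with folds of 16.06, 18.97 and 11.84 in controls and 15.23, 15 and 7.04 in CKO. No mirror region was nearest to *Runx3* or *Sox6*, and *Sox9*, *Foxa2*, *Sox5* and *Runx2* had 5, 4, 6 and 2 by nearest protein-coding gene. In all, 11 of the 14 listed chondrogenic regulators had a region by nearest protein-coding gene (111 regions) and 4 by nearest gene of any type, against 31.0% and 19.2% of tested genes. Other protein-coding genes among the 12 with the most regions were *Kcnma1*, a potassium channel (17, beside 11 mirror regions), *Chst11* (17), *Msi2*, an RNA-binding protein (16), *Slc25a13*, *Xylt1*, which starts glycosaminoglycan chains, and *Sstr2* (15 each), and *Iqsec1*, *Smoc2* and *Dbx1* (14 each).

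Hypertrophy and mineralisation genes followed. Of 13, 10 were the nearest gene of a region, 21 regions in all, 18 of them with a peak in all 3 CKO libraries. *Col10a1*, the collagen of hypertrophic cartilage, had 4 regions. The strongest (chr10:34356406-34357175, 33.3 kb upstream) had folds of 17.35, 15.73 and 8.97 in controls and 14.26, 13.47 and 7.61 in CKO. *Enpp1*, which makes the mineralisation inhibitor pyrophosphate, had 5, *Alpl*, the alkaline phosphatase that removes it, had 3, and *Sp7*, the osteoblast transcription factor osterix, had 3. *Panx3*, a channel of hypertrophic cells, had 1 region at its promoter (chr9:37668814-37670140) with folds of 12.25, 11.93 and 10.16 in controls and 10.85, 11.69 and 9.53 in CKO. The *Ibsp* promoter region (chr5:104299004-104299593) had 10.09, 11.65 and 5.37 in controls and 9.94, 7.46 and 8.23 in CKO. In the 26 genes of growth plate signalling, 8 had a region of their own and 18 by nearest protein-coding gene, among them the parathyroid hormone receptor *Pth1r* (1), *Ihh* (3), its receptor *Ptch1* (7) and the growth inhibitor *Fgfr3* (5). The periosteal fibroblast list had 5 growth plate-only regions at 4 of its 20 genes (*Cilp*, *Gsn*, *Mfap5* and *Pi16*) and 26 mirror regions at 12 of them. Among all tested genes 19.2% were nearest to a growth plate-only region and 14.5% to a mirror region, so the first count was near its background share.

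Each of the 12458 regions was then joined to the RNA of its nearest gene. The regions had 8157 distinct nearest genes, 5622 of them nearest to a single region and 6 to 10 or more. Protein-coding genes were nearest to 40% of the regions, and the rest were pseudogenes, long noncoding, antisense and small RNAs that RNA libraries of this kind count poorly. Of the 8157 genes, 7817 were in the count table and 2525 (31.0%) passed the filter on low counts, so what follows covers 2525 genes and not all neighbours.

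Replicates 2 and 3 of each RNA group differed by no more than sampling noise among genes with 5 to 99 counts and by far less than from replicate 1, and they were summed and counted as 1 sample, which left 2 samples per group. Without a replicate block, edgeR's quasi-likelihood test with Benjamini-Hochberg adjustment called 0 of 13173 genes (0%) between control gpSSPCs and pSSPCs, with 287 higher and 528 lower at an unadjusted p under 0.05 and 165 and 101 among the 2525 neighbours. DESeq2 called 75 of the 1591 neighbours it gave an adjusted p (4.71%), against 234 of 8160 genes in all (2.87%). Same-numbered samples deviated together, and with the replicate number as a block edgeR called 164 genes higher in control gpSSPCs (1.24% of those tested) and 312 lower (2.37%). Of the 2525 neighbours of growth plate-only regions 105 were higher (4.16%) and 56 lower (2.22%). Of the 1913 tested neighbours of mirror regions 33 were higher (1.73%) and 130 lower (6.80%), and of the 9644 neighbours of regions open in all 12 libraries 107 were higher (1.11%) and 232 lower (2.41%). The median log2 fold change was 0.25 for the growth plate-only neighbours, -0.34 for the mirror neighbours, -0.05 for the neighbours of regions open in all 12 and -0.03 for all tested genes. The growth plate-only median was 0.08 by DESeq2. It was 0.11 over the 4078 tested genes that were the nearest protein-coding gene of a region, of which 129 were higher with the block (3.16%) and 105 lower (2.57%), a more even split than over nearest genes of any type. Within replicate numbers 1, 2 and 3 the median log2 ratio of CPM (1 CPM added) over the growth plate-only neighbours was 0.22, 0.21 and 0.19. Over the mirror neighbours it was 0, -0.26 and -0.31, so replicate 1 showed no difference there, and over all tested genes it was 0, 0 and -0.03. The p-values measure the spread between these samples, which may be technical.

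The share of neighbours with more RNA in gpSSPCs was larger where there were more regions. The median log2 fold change in controls was 0.15 for the 1679 tested genes with 1 region, 0.35 for the 501 with 2, 0.60 for the 273 with 3 to 4 and 1.04 for the 72 with 5 or more, of which 83.3% were above 0. With the block, 2.98%, 4.79%, 8.79% and 9.72% of these groups were called higher, and 2.62%, 1.40%, 1.47% and 1.39% lower. Distance showed the same order near the gene. Neighbours with a region within 1000 bases of the start had a median of 1.46 (188 genes, 27 called higher and 3 lower), those with a region at over 1 to 10 kb had 0.40 (1005 genes, 60 and 18), those at over 10 to 100 kb had 0.19 (1681 genes, 59 and 37) and those at over 100 kb had 0.30 (111 genes, 3 and 2). A gene with several regions can stand in more than 1 distance group. No test of the differences between these groups was run.

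The same comparison was made in the CKO RNA libraries, which the choice of regions did not use. Control and CKO gpSSPCs samples of the same replicate number deviated together (correlations of 0.56 to 0.6). The CKO comparison therefore cannot be taken as independent of the control one. With the block 165 genes were higher in CKO gpSSPCs than in CKO pSSPCs (1.25%) and 146 lower (1.11%), and among the growth plate-only neighbours 101 were higher (4.0%) and 21 lower (0.832%). Without the block edgeR called 0 genes (0%), with 310 higher and 258 lower at an unadjusted p under 0.05, and DESeq2 called 54 of 1591 neighbours (3.39%), against 102 of 8160 genes in all (1.25%). The median log2 fold change of the neighbours was 0.23, and it was 0.13, 0.30, 0.57 and 0.97 with 1, 2, 3 to 4 and 5 or more regions. Within replicate numbers 1, 2 and 3 the median log2 ratio of CPM (1 CPM added) was 0.08, 0.18 and 0.15, lowest in replicate 1, and over the mirror neighbours it was -0.02, -0.23 and -0.25.

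**Figure D3:**
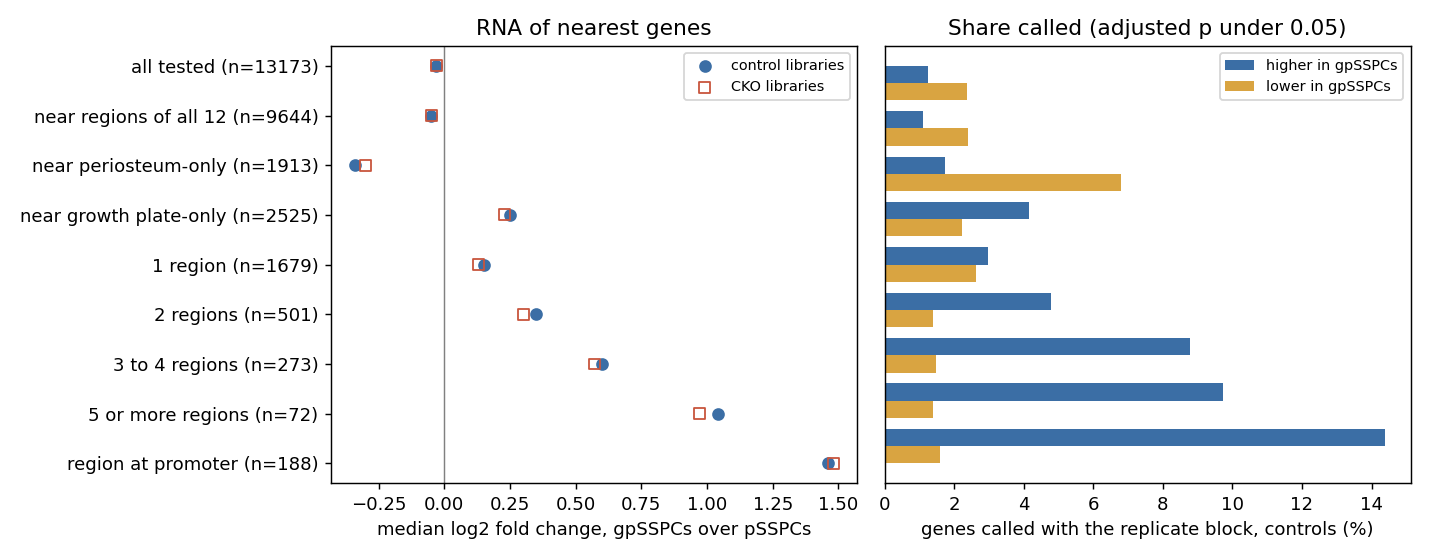
Left, median log2 fold change (gpSSPCs over pSSPCs) of tested genes nearest to each set of regions, circles for control and squares for CKO libraries, n is the number of genes. Right, percent of the same genes called with the replicate block in controls; genes with 5 or more regions reach 9.72% higher and genes with a region at the promoter reach 14.4% higher, against 1.24% of all tested genes.

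Some genes had both kinds of region. Of the 8157 neighbours, 2306 (28.3%) also had a mirror region, which is 32.7% of the 7043 mirror neighbours. The 687 tested genes with both kinds had a median log2 fold change of 0.00 in controls, the 1838 with growth plate-only regions and no mirror region had 0.34, and the 1226 with mirror regions and no growth plate-only region had -0.55. *Mef2c*, a regulator of hypertrophy with 3 growth plate-only and 2 mirror regions, was 207, 223 and 226 CPM in control gpSSPCs and 64.5, 58.6 and 53.0 in control pSSPCs (log2 fold change 1.85 ± 0.46 SE, adjusted p = 0.379, 0.00201 with the block).

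Named neighbours are given next by role, with adjusted p from edgeR. None of them passed without the replicate block. All 19 cartilage matrix genes had a log2 fold change above 0 between control gpSSPCs and pSSPCs (median 2.22), 0 were called without the block and 18 of 19 with it, the exception being *Matn1*, matrilin 1. *Col2a1* was 25300, 15400 and 15500 CPM in control gpSSPCs and 4550, 2270 and 2010 in control pSSPCs (log2 fold change 2.61 ± 0.56 SE, adjusted p = 0.354, 6.37e-13 with the block). *Acan* was 2980, 4990 and 4020 against 505, 424 and 385 CPM (3.02 ± 0.40, adjusted p = 0.168, 1.44e-10 with the block). The 6 values of either gene did not overlap between the groups. *Epyc* had the largest log2 fold change of the list, 3.34 ± 0.74 (adjusted p = 0.354, 0.000499 with the block), with 68.8, 145 and 144 against 7.54, 13.8 and 12.3 CPM. *Matn1* was 23.9, 52.0 and 51.7 against 2.51, 10.0 and 7.72 CPM, with an adjusted p of 0.681 without and 0.117 with the block.

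Among the regulators, *Sox9* was 1740, 1040 and 1030 CPM in control gpSSPCs and 704, 287 and 275 in control pSSPCs (log2 fold change 1.49 ± 0.59, adjusted p = 0.709, 6.9e-05 with the block). *Sox6* was 108, 59.2 and 59.0 against 13.4, 9.71 and 10.1 CPM (2.85 ± 0.63, adjusted p = 0.354, 0.00611 with the block). *Runx3* was 200, 114 and 107 against 31.8, 17.8 and 20.4 CPM (2.60 ± 0.66, adjusted p = 0.380, 0.00134 with the block). Replicate 1 was the highest in both groups for all 3 genes, and every gpSSPCs value was above every pSSPCs value. Of the 13 tested regulators 5 were higher with the block, which adds *Sox5* and *Mef2c* to these, and 1 was lower, *Arid5b*, a chromatin cofactor with no growth plate-only region and 3 mirror regions.

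**Figure D4:**
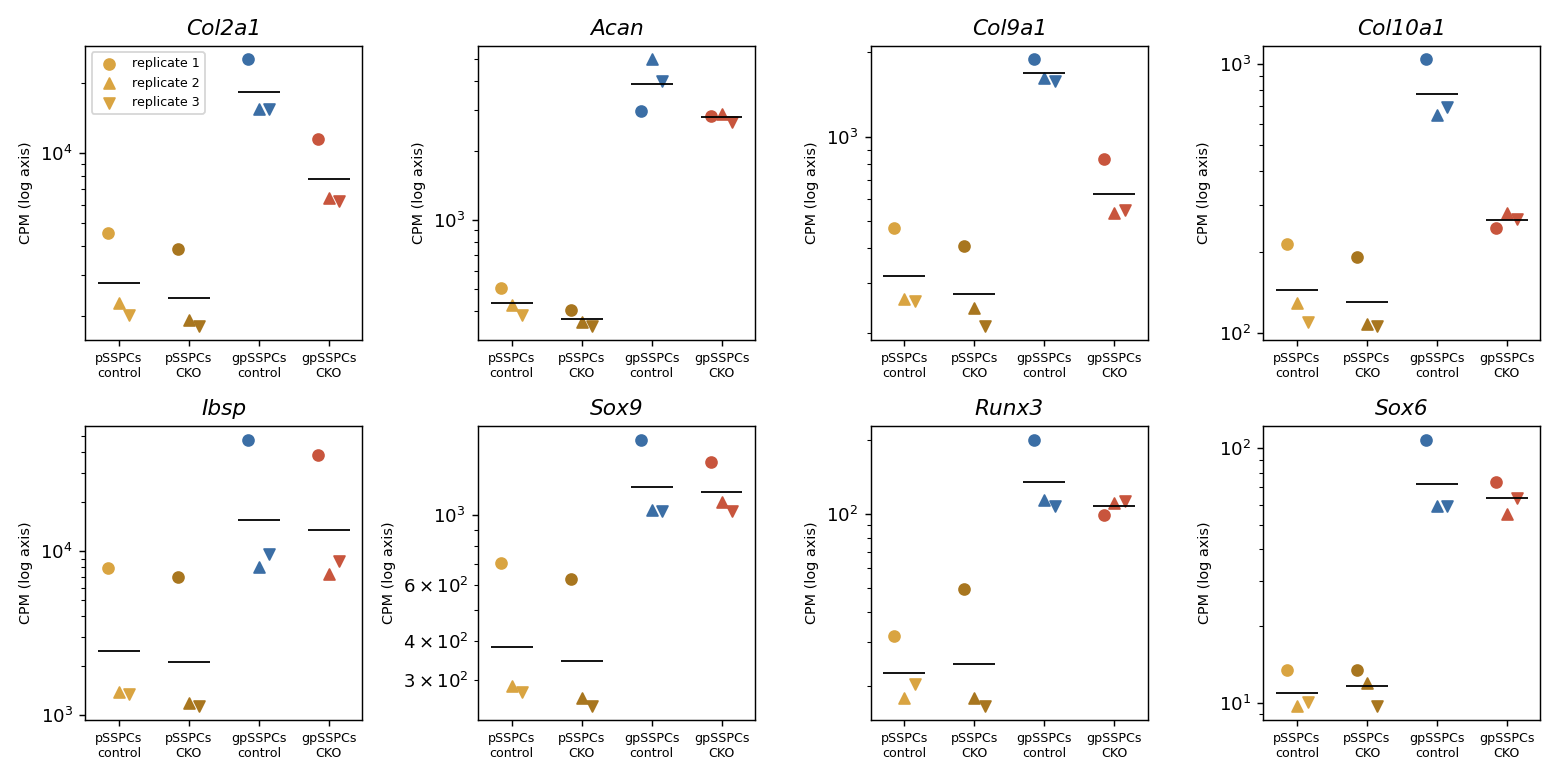
CPM (log axis) of 8 neighbours of growth plate-only regions in each RNA library, with 1 point per replicate and a line at the geometric mean of 3. Control gpSSPCs lie above control pSSPCs for all 8. CKO gpSSPCs lie below control gpSSPCs of the same replicate number in all 3 replicates for *Col2a1*, *Acan*, *Col9a1*, *Col10a1* and *Ibsp*, and not for *Sox9*, *Runx3* and *Sox6*.

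Of the 13 hypertrophy and mineralisation genes 8 were higher in control gpSSPCs with the block and none lower (median log2 fold change 1.91). *Ibsp* was 47900, 8010 and 9570 CPM in control gpSSPCs and 7910, 1390 and 1340 in control pSSPCs, so that replicate 1 of the pSSPCs nearly reached replicate 2 of the gpSSPCs (2.62 ± 1.16, adjusted p = 0.802, 9.44e-14 with the block). *Col10a1* was 1040, 646 and 689 against 215, 129 and 110 CPM (2.36 ± 0.51, adjusted p = 0.354, 3.28e-06 with the block). *Alpl* was 936, 978 and 1050 against 173, 154 and 142 CPM (2.61 ± 0.40, adjusted p = 0.279, 9.34e-08 with the block). *Mmp13* had 501, 273 and 269 against 232, 68.3 and 59.4 CPM (1.40 ± 0.79, adjusted p = 0.929, 0.00362 with the block). Of 24 tested signalling genes 3 were higher with the block, *Pth1r*, *Ihh* and *Fgfr3*, and 2 were lower, *Fgf18* and *Bmp4*, of which *Bmp4* had 2 mirror regions and neither had a growth plate-only region by nearest gene of any type. Over all tested genes 1.24% were higher and 2.37% lower, and the counts of each gene list here are to be read against those shares.

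A growth plate-only region did not always go with more RNA. Of the 20 periosteal fibroblast genes 12 were lower in control gpSSPCs with the block and 1 (*Col1a1*) was higher, and the lower ones included 3 of the 4 with a growth plate-only region. *Gsn*, gelsolin, had an intergenic region 1.3 kb from its start and was 7560, 8030 and 7600 CPM in control gpSSPCs against 45000, 23700 and 23900 in control pSSPCs (-2.17 ± 0.43, adjusted p = 0.324, 3.56e-09 with the block). The neighbours with the largest fall that the block called were *Ksr1* (-3.98 ± 1.42), *Cox7a1* (-3.90 ± 1.52), *Plxna1* (-3.73 ± 0.87), *Samd9l* (-3.63 ± 0.97) and *Ebf1* (-3.52 ± 0.82). *Ksr1*, a kinase scaffold, was 8.55, 0.94 and 2.65 CPM in control gpSSPCs and 155, 6.26 and 7.72 in control pSSPCs, with the widest gap in replicate 1. *Cox7a1*, a respiratory chain subunit, was 8.12, 0.94 and 1.42 against 121, 13.2 and 15.4 CPM, lower in gpSSPCs in each replicate. *Ebf1*, a transcription factor of stromal and B cells, was 159, 122 and 124 against 2440, 685 and 856 CPM. The largest rises were those of *Clec3a*, a cartilage lectin (3.39 ± 1.07), *Gpc1*, glypican 1 (3.37 ± 0.86), *Epyc*, *Bmp8a*, a BMP ligand (3.12 ± 0.74), and *Acan*.

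Protein-coding genes with many regions of their own were mixed. By nearest gene of any type *Msi2* had 13 regions and was 109, 99 and 92.4 against 30.2, 20.4 and 17.0 CPM (2.08 ± 0.60, adjusted p = 0.437, 0.0244 with the block). *Tns3*, a focal adhesion protein with 9 regions, had a log2 fold change of 2.01 ± 0.76 (adjusted p = 0.685, 0.147 with the block). *Trabd2b* (9 regions), *Camta1* and *Cmip* (8 each) and *Pard3*, a polarity protein (7), had values of -0.18, 0.03, 0.44 and 0.07, with SEs of 0.87 to 0.90, and none passed the threshold. *AL607142.1* (13) and *Adamts17* (8) were not tested. The 12 with the most regions by nearest protein-coding gene were mixed as well. With the block *Sox9*, *Chst11*, *Msi2*, *Xylt1* and *Runx3* were called higher. *Smoc2* was called lower (-1.07 ± 1.24, adjusted p = 0.0459 with the block). *Foxa2*, *Kcnma1*, *Slc25a13* and *Iqsec1* had values of 2.60, 1.54, 2.04 and 1.04 and were not called. *Sstr2* and *Dbx1* were not tested.

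Persistence in CKO gpSSPCs was then measured, a readout the choice of regions did not use. Of the 12458 regions 9511 (76.3%, Wilson interval 75.6 to 77.1 for counting error only) had a peak in all 3 CKO libraries, 2073 in 2, 711 in 1 and 163 (1.31%) in none. By library the share was 94.3%, 90.7% and 83.0% (mean 89.3% ± 5.8 SD, n = 3), and the lowest was replicate 3, the library with the lowest fold. In the full CKO lists 85.86% had a peak in all 3 libraries and 26 regions had none. Among the 23972 regions with a peak in all 3 control gpSSPCs and all 6 pSSPCs libraries 90.0% were in all 3 CKO libraries. Among the 7457 with a peak in 1 to 5 pSSPCs libraries 78.2% were, with a mean per library of 90.2%, close to the 76.3% and 89.3% of the growth plate-only regions.

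A control left out of the choice gave a measure of what a new control library would show. When regions were chosen without control replicate 1, 2 or 3, the replicate left out had a peak in 89.0%, 91.9% and 80.0% of them, and the CKO libraries had a peak in 86.2%, 86.3% and 80.9% on average. Set against the CKO library of the same number, the control left out had 89.0% against 91.2%, 91.9% against 87.4% and 80.0% against 71.5%. The direction thus depended on which CKO libraries were compared, by their mean or by number, and single CKO libraries ran from 71.5% to 91.6%. Leaving out control replicate 3 lowered the CKO mean from 89.3% to 80.9%.

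Persistence varied with fold. In 4 groups of near-equal size from low to high mean control fold, 71.2%, 63.4%, 78.2% and 92.6% of the regions were in all 3 CKO libraries, and the lowest share was at folds of 6.33 to 7.89. It varied little by place, from 75.3% of intergenic to 79.3% of coding or noncoding exon regions, with 77.2% at promoters. The 5 regions with the highest control fold among the 163 without a CKO peak had mean folds of 9.82 to 10.19, and in each of them control replicate 1 was the highest of the 3. One lay in an intron of *Tgm1*, a transglutaminase (16.01, 8.20 and 6.36), and the others included regions nearest to *Rps2-ps5*, *Mir7041* and *Gm25179*. Neighbours of regions in 0 or 1 CKO library had a median log2 fold change between the control groups of 0.16 (274 genes), and neighbours of regions in all 3 had 0.29 (2065 genes).

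**Figure D5:**
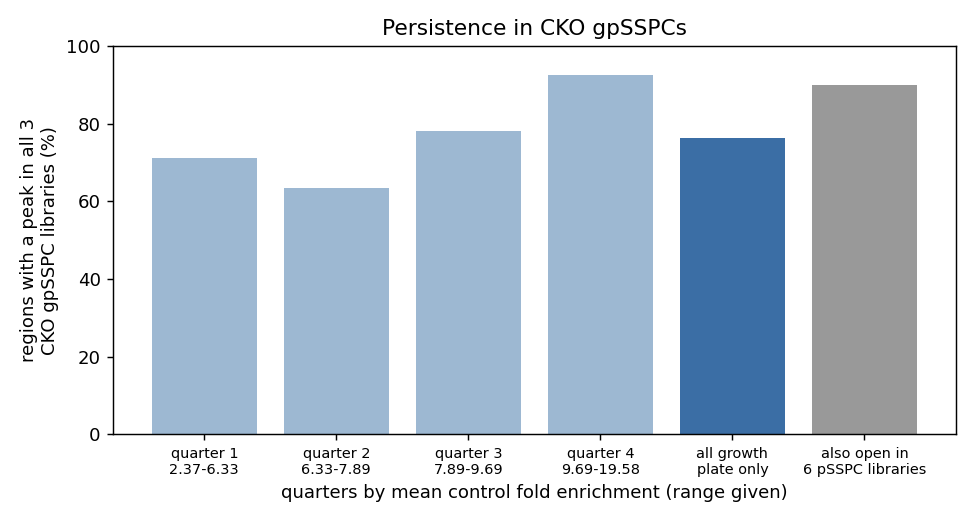
Percent of regions with a peak in all 3 CKO gpSSPCs libraries, in 4 groups by mean control fold enrichment (ranges under the bars), for all growth plate-only regions (76.3%) and for regions of gpSSPCs controls that all 6 pSSPCs libraries share (90.0%). The share is highest, 92.6%, at folds of 9.69 to 19.58 and lowest, 63.4%, at 6.33 to 7.89.

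Between CKO and control gpSSPCs edgeR called 0 genes without the block (0%), with 16 higher and 13 lower at an unadjusted p under 0.05, and DESeq2 called 0 of 20451 (0%). With the block edgeR called 3 higher (0.0228%) and 5 lower (0.038%). Of the 2525 tested neighbours of growth plate-only regions, which are 19.2% of tested genes, 1 was called higher (0.0396%). All 5 lower genes were among these neighbours (0.198%). The neighbours as a whole showed no shift, with a median log2 fold change of -0.01 and 49.1% above 0. At an unadjusted p under 0.05 without the block, 6 of them were higher and 5 lower. Erythroid RNA moved with this comparison as well, at 13.1, 4670 and 4720 CPM in control and 10.3, 1900 and 1980 in CKO gpSSPCs, and its part in these calls was not tested. This comparison and the one between the control groups share the control gpSSPCs libraries. *Col2a1* was 11500, 6430 and 6240 CPM in CKO against 25300, 15400 and 15500 in control gpSSPCs (-1.19 ± 0.53 SE, adjusted p = 1, 4.21e-05 with the block), and 8 of its 9 regions had a peak in all 3 CKO libraries. *Col9a1* was 835, 535 and 550 against 1890, 1620 and 1580 CPM (-1.33 ± 0.47, adjusted p = 1, 0.00967 with the block), with 8 of 9 regions in all 3. The other was its promoter region, chr1:24177254-24177981, whose fold was 7.20, 5.30 and 4.36 in the controls and 4.61 and 3.99 in CKO replicates 1 and 3, with no peak in replicate 2. *Col11a2* was 1500, 785 and 759 against 3080, 1850 and 1920 CPM (-1.13 ± 0.60, adjusted p = 1, 0.0189 with the block), and *Col10a1* was 246, 278 and 266 against 1040, 646 and 689 CPM (-1.72 ± 0.49, adjusted p = 1, 0.0129 with the block). All 3 *Col11a2* and all 4 *Col10a1* regions had a peak in all 3 CKO libraries. Of the 25 regions of these 4 genes 23 were in all 3 CKO libraries.

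The fifth lower gene was *R3hdml*, at 60.2, 11.1 and 11.3 CPM in CKO and 341, 54.5 and 65.3 in control gpSSPCs (-2.51 ± 1.17, adjusted p = 1, 0.0368 with the block), and its 1 region was in all 3 CKO libraries. Of the 3 higher genes, *Serpina1d* (1.76 ± 0.41) had 1 growth plate-only region, which was not in all 3 CKO libraries, and *Serpina1a* and *Cst3* had none. The *Serpina1* genes are near-identical copies, so reads may be divided among them in ways that make their values uncertain.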

How the data were processed

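The files were 12 ATAC-seq peak lists and 12 bulk RNA count tables; single-cell files were not used. The submitters' processing notes name Bowtie2, MACS2, STAR, HTSeq, bedtools, DESeq2 and HOMER and the build mm10. The deposited peak lists give, per the file headers, for each peak its width, a pileup signal, a fold enrichment (a linear ratio over local background) and a −log10 q, called by the authors with MACS2 per library after Sambamba removed mitochondrial and duplicate reads, at a q cutoff of 0.05. The deposited RNA tables hold raw counts per gene, 53801 genes, made by the authors with STAR and HTSeq after duplicate reads were removed by molecular identifiers; HTSeq's strand setting is not given in the sources used here. No replicates were pooled in the files.

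Lists were reduced to 59183 peaks by −log10 q and merged at an overlap of 1 base. Nearest genes and places came from GENCODE vM21 (GRCm38, the build of the files). Counts were tested with edgeR 4.0.16 (R 4.3.3; filterByExpr, TMM, quasi-likelihood, 4 groups in 1 fit, Benjamini-Hochberg over 13173 genes); a gene was called at an adjusted p under 0.05. The SEs printed are of the fit without a block. Replicates 2 and 3 were summed, since their chi-square per degree of freedom was 0.805 to 0.972 for genes with 5 to 99 counts against 10.2 to 14.2 with replicate 1; among genes with 20 counts or more it was 1.59 to 1.92, against 53.2 to 71.4. The labels share replicate numbers, and deviations of same-numbered samples correlated at 0.55 to 0.61, so results are also given with the number as a block; replicates 2 and 3 correlated as well with each other's number (0.53 to 0.56), so the pairing separates replicate 1 from the other two. The fit without a block was tested on data simulated for the comparison of control gpSSPCs and pSSPCs, where it recovered the largest changes and missed the smallest. The simulated counts held no replicate effect, and their spread was estimated with the replicate number in the model. They therefore cannot show how many changes this fit finds in the real data, where replicate 1 differs. The other fits were not simulated. Named genes were those of the lists with a region nearest to them, the 10 protein-coding genes with the most regions, the 5 largest changes in each direction among called genes of at least 5 CPM (taken from the fit with the block, as none was called without it), the nearest genes of the 8 strongest regions and the sort markers; other genes were named after their values were seen. The regions and lists were chosen with earlier results of these data known. Sequences and GC content of regions away from promoters are not analysed here. Some genes of the marker lists and near regions are not reported here.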

Additional observations from a re-analysis of the deposited data

How the results depend on the processing

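The number of growth plate-only regions stayed within 1.5 times of 12458 under each alternative tried: 18270 from the full lists, 11974 with lists shortened by fold enrichment, 16424 at a −log10 q of at least 5, 12489 with an overlap of 100 bases, and 12633 to 15582 without 1 control gpSSPCs library or 1 pSSPCs library. Mean persistence fell by more than the spread of 5.8 with the full lists (79.6%) and at a −log10 q of at least 5 (78.0%), was 87.1% with lists shortened by fold, and ran from 80.9% to 92.5% with 1 library left out; the cause was not tested. The promoter share was 11% within 2500 bases, as a wider window must give. A summit window of 300 bases was not run because the only sequence used here was that of promoter windows.

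The call of RNA differences depended on the fit. For neighbours between the control groups, 0 were called without the replicate block, 161 with it (6.38% of those tested, 3.61% of all genes), 215 with each library as 1 sample (9.07%, 4.54%), 596 with each library and the block (25.1%, 16.8%, added after seeing the data), 75 by DESeq2 (4.71%, 2.87%), 43 without a filter on low counts (1.12%, 0.435%), and 0 with the 2 control groups alone, within 100 kb, or with any 1 library left out (without replicate 1 a group keeps 1 sample, assumed to vary like the others). With the block the protein-coding neighbours gave 234 calls and the neighbours from the full lists 187. Between the CKO groups the counts were 122, 173, 471 and 54 with the block, with each library, with both and by DESeq2 (4.83%, 7.30%, 19.9% and 3.39%, against 2.36%, 2.96%, 12% and 1.25% of all genes). Between CKO and control gpSSPCs they were 6 of 8 calls with the block, 13 of 20 with each library and the block, and 0 otherwise. The median log2 fold change of the neighbours in controls was 0.08 by DESeq2 and 0.11 for protein-coding neighbours, and 0.18 to 0.43 under the other alternatives. Among 741 values of 62 genes under the alternatives, 9 in 6 genes turned sign, none past the threshold. These were *Camta1* by DESeq2 (-0.09), *Pard3* with each library as 1 sample (-0.09, and -0.0049 with the block as well), and values with 1 library left out, whose ranges were -0.89 to 1.72 for *Camta1*, -0.40 to 0.63 for *Cmip*, -0.73 to 0.52 for *Cyp2j6*, -0.71 to 0.50 for *Pard3*, -0.95 to 0.49 for *Trabd2b* and -0.70 to 0.88 for *Zmpste24*; the libraries that turned them were replicate 1 of control gpSSPCs or pSSPCs. The causes were not tested. RNA libraries held 1333260 to 5315709 counts, at which 31.0% of the nearest genes of any type and 69.2% of the nearest protein-coding genes passed the filter.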
